A study of Homo sapiens with 16 samples.

Results

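The genes described here encode the hypoxia-inducible factor (HIF) subunits and the proteins that sense oxygen for them. They were chosen by name, with earlier results of these data known. All 10 were found among the 64792 Ensembl identifiers of the count table: HIF1A, EPAS1, HIF3A, ARNT, EGLN1, EGLN2, EGLN3, VHL, HIF1AN and CITED2. Transcripts were measured by poly(A) RNA sequencing in DU145, an established human prostate cancer cell line, so every group is the same line. The 16 libraries form 4 groups of 4 independent replicates: control cells, cells given lactate, cells given I-BET762, and cells given lactate together with I-BET762. I-BET762 inhibits BET proteins, the readers of acetylated histones. The labels state neither the dose nor the duration of either treatment, nor the oxygen tension of the cultures. For the group given both treatments, the cell line entries read DU146 to DU149 while the titles read DU145; the titles were followed.

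As background, HIF is a pair of proteins, an oxygen-labile alpha subunit (encoded by HIF1A, EPAS1 or HIF3A) and the stable partner encoded by ARNT. In the presence of oxygen the prolyl hydroxylases encoded by EGLN1, EGLN2 and EGLN3 mark the alpha subunit, the VHL ubiquitin ligase binds the mark, and the proteasome degrades the subunit. The asparaginyl hydroxylase encoded by HIF1AN (also called FIH) blocks coactivator binding, and CITED2 competes with the alpha subunit for the coactivators CREBBP and EP300. EGLN3, EGLN1 and CITED2 are themselves known targets of HIF. Control of the alpha subunits is largely at the level of the protein, which these libraries do not measure.

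Total counts were 10711859 to 17173584 per library, and 14690 genes passed the filter on low counts. The epithelial keratins KRT8 and KRT18 stood at 737 CPM or more in every library (CPM, counts scaled to library size), as did the keratin KRT19 at 208 CPM or more, while KRT5 had 0 counts. The luminal prostate marker KLK3 had at most 1 count. Fibroblast markers summed to 3.94 to 4.82 CPM in control and 5.19 to 8.86 CPM with lactate, with DCN at 0, and leukocyte markers to 2.56 to 3.33 and 3.27 to 4.36 CPM, with CD3E at 0; their part in the results was not tested. HEXIM1, a gene that BET inhibitors are known to raise, reached 135.1 CPM in control replicate 2 (as labelled), where the remaining controls had 70.0 to 77.4 CPM. The library labelled I-BET762 replicate 2 had 89.6 CPM, below the 113.3 to 148.8 CPM of its group. Both went against their labels, so results that rest on them are also given without them. Lactate replicates 1 and 4 stood apart as well: across genes, Spearman's correlation of relative expression with exon length was -0.40 and -0.42 in them, against -0.13 to 0.27 in the other 14 libraries. The same correlation with GC content was -0.55 to -0.30 in the control libraries and -0.02 to 0.32 in the lactate libraries, so that trend separates these groups.

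As a description of sequence, the 250 bases before the RefSeq start site are printed for the 4 members that changed under lactate and for EGLN1, from RefSeq on GRCh38.p14. Binding of HIF was not measured, and sites outside such 250-base windows were not searched. Capitals mark the core letters of a hypoxia response element, searched as ACGTG and GCGTG on both strands. Where ACGTG lies within CACGTG, both strands match and the matches overlap. Windows were found for 9 of the 10 members, all but VHL.
EGLN3: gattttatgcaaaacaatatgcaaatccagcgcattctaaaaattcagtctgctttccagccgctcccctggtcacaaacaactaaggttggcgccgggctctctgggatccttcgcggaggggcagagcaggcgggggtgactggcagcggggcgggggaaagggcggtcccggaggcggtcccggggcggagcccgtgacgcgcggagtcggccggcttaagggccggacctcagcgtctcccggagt
CITED2: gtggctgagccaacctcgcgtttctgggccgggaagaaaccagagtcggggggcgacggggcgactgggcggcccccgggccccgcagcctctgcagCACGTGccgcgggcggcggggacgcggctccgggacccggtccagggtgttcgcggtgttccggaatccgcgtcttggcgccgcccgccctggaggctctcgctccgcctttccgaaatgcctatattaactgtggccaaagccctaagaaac
HIF1A: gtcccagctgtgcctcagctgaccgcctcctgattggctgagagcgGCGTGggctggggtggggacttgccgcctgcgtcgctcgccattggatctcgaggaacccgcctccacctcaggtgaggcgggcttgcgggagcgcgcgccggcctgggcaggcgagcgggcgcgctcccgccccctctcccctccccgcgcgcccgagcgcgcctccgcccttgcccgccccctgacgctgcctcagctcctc
HIF1AN: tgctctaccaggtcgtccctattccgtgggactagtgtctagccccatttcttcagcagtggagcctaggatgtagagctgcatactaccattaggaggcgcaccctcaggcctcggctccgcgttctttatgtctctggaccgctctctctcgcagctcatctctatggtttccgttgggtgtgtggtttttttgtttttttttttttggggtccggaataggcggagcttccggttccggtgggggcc
EGLN1: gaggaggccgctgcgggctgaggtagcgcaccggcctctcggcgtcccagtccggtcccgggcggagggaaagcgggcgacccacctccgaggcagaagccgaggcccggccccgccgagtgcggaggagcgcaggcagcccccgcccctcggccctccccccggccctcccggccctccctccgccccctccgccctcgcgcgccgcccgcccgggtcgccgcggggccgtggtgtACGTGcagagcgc
The windows are chr14:33951075-33951324 (minus strand) for EGLN3, chr6:139374649-139374898 (minus strand, the outermost of 3 start sites) for CITED2, chr14:61695263-61695512 (plus strand, the outer of 2 start sites) for HIF1A, chr10:100535693-100535942 (plus strand) for HIF1AN and chr1:231422288-231422537 (minus strand) for EGLN1. EGLN1 held ACGTG once, 13 bases before its start. CITED2 held it inside CACGTG, 153 bases before its start, and HIF1A held GCGTG once, 204 bases before its start. The inner windows of CITED2 each held GCGTG once and that of HIF1A held neither. EGLN3 and HIF1AN held neither motif in these windows. Of 35116 RefSeq windows of this length, 18.5% held ACGTG, 32.2% held GCGTG and 43.2% held at least 1 of them, so a match is common and was read as a description only.

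With lactate against control, EGLN3 rose 2.01-fold and CITED2 rose 1.42-fold, while HIF1A fell to 0.731 and HIF1AN to 0.697 of the control level. EPAS1, ARNT, EGLN1, EGLN2 and VHL did not pass the test, and HIF3A was too low to test. The 4 changed genes, 2 higher and 2 lower, are 4 of 9 tested members against a background of 23.7% of all tested genes (13.6% higher and 10.1% lower), and the count alone was not read as particular to these genes. Without the libraries labelled control 2 and I-BET762 2 the count was 2 (EGLN3 and HIF1AN), and with offsets for GC content and exon length it was 1 (EGLN3). Adding lactate to the inhibitor (both treatments against I-BET762) raised 1 of 9, EGLN3, against 4.90% of all genes (3.34% higher). Both treatments against control raised 2 of 9, EGLN3 and CITED2, against 20.7% (13.0% higher); without the 2 doubted libraries the 2 called were EGLN3 and VHL. These tests were edgeR quasi-likelihood tests with Benjamini-Hochberg adjustment over all 14690 genes, called at an adjusted p under 0.05. The comparisons share libraries and are not independent of each other.

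**Figure D1:**
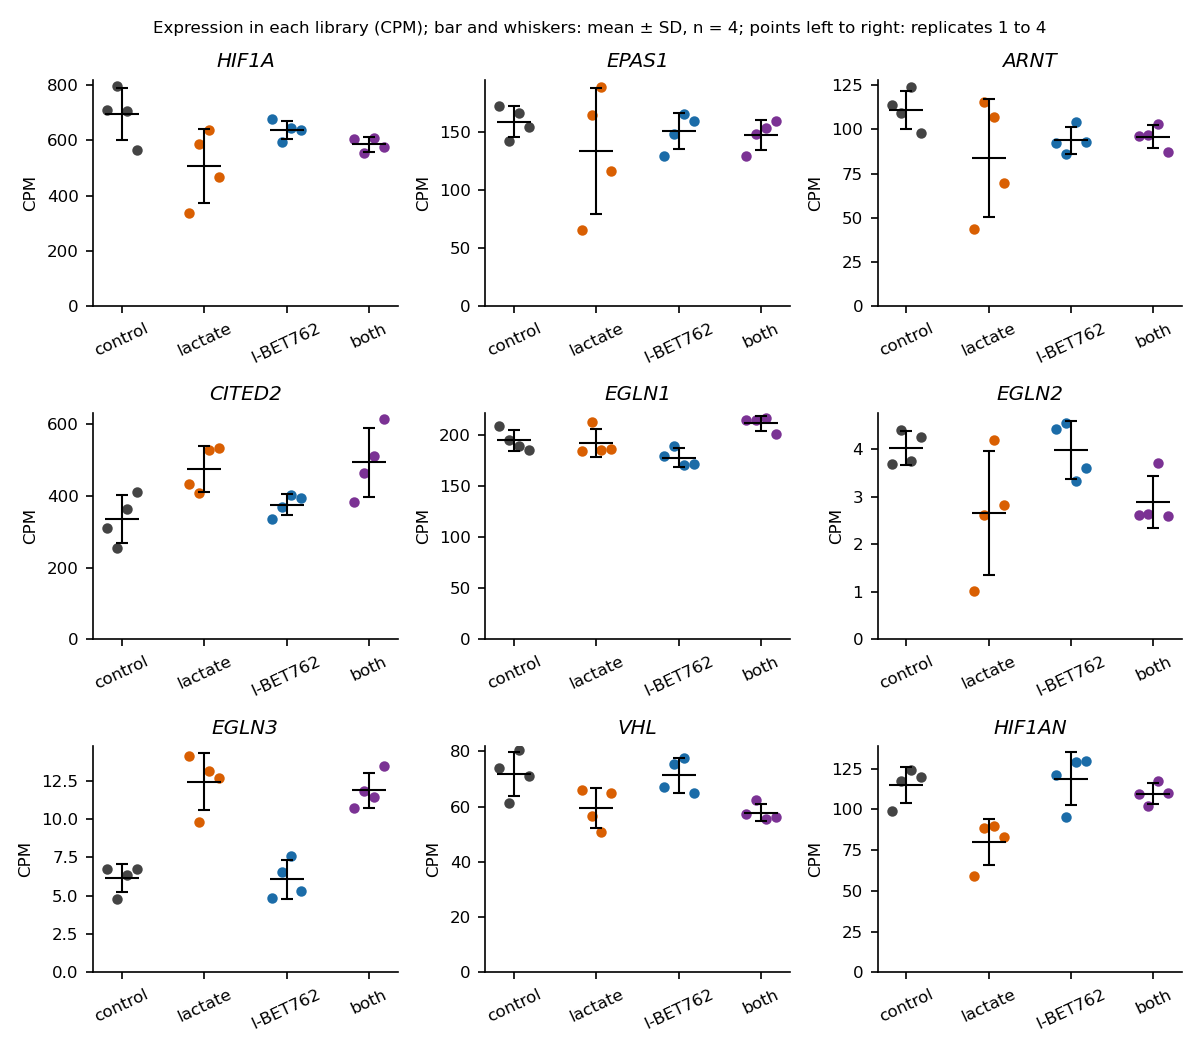
CPM of the 9 tested genes in each of the 16 libraries (points, replicates 1 to 4 from left to right) by group, with the mean and SD (n = 4); each axis starts at 0. EGLN3 separates the groups with and without lactate, from 4.78 to 7.60 CPM without it and 9.83 to 14.1 CPM with it.

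HIF1A, the alpha subunit of HIF-1 (ENSG00000100644, chromosome 14, 61695513 to 61748259, plus strand), was the most abundant member by CPM. It stood at 710, 795, 704 and 567 CPM in control replicates 1 to 4 and at 336, 587, 638 and 469 CPM in lactate replicates 1 to 4. The groups overlapped, with the lowest lactate values in replicates 1 and 4 and lactate replicates 2 and 3 above control replicate 4. The means were 694 ± 94.5 and 507 ± 135 CPM (SD, n = 4 each). On the log2 scale HIF1A fell by 0.45 (SE 0.15), with an edgeR adjusted p of 0.0442. The call did not outlast most changes of setting. It stood at -0.38 (adjusted p = 0.128) without the libraries labelled control 2 and I-BET762 2, at -0.30 (0.0602) without lactate replicate 1 and at -0.17 (0.259) without lactate replicates 1 and 4. Without control replicate 1, 2 or 3 or lactate replicate 4 it also missed the threshold, at -0.44 (0.0850), -0.38 (0.114), -0.45 (0.0925) and -0.42 (0.109). With the trend of each library on GC content removed it was -0.29 (0.229); 36.4% of the bases of HIF1A's longest transcript are G or C. With I-BET762 alone HIF1A stood at 594 to 676 CPM, and with both treatments at 553 to 610 CPM, below every I-BET762 library except the one labelled replicate 2. Neither the inhibitor alone (-0.12, adjusted p = 0.877) nor both against control (-0.24, adjusted p = 0.287) passed the test.

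EPAS1 encodes the alpha subunit of HIF-2 (ENSG00000116016, chromosome 2, 46293667 to 46386703, plus strand). It stood at 142 to 172 CPM in the control libraries and at 65.9, 165, 189 and 116 CPM in lactate replicates 1 to 4. The lactate libraries thus spanned values both above and below all controls, and the log2 fold change of -0.25 (SE 0.21, adjusted p = 0.406) did not pass the test. ARNT, the shared partner subunit (ENSG00000143437, chromosome 1, 150809705 to 150876768, minus strand), had the same order of lactate libraries at its low end. It stood at 97.9 to 124 CPM in control and at 43.4, 115, 107 and 69.6 CPM in lactate replicates 1 to 4 (log2 fold change -0.41, SE 0.20, adjusted p = 0.152). Without lactate replicates 1 and 4 the differences were 0.16 for EPAS1 and 0.003 for ARNT, while without lactate replicate 2 ARNT stood at -0.60 and passed (adjusted p = 0.0318). With I-BET762 and with both treatments EPAS1 stayed between 130 and 166 CPM and ARNT between 85.9 and 104 CPM. HIF3A, a further alpha subunit, had 0 to 2 counts per library, under a floor of 3 counts (0.170 to 0.305 CPM), so no level or difference was detectable at this depth.

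Of the prolyl hydroxylases, EGLN3 (ENSG00000129521, chromosome 14, 33924231 to 34462774, minus strand) gave the clearest difference. It stood at 6.74, 4.78, 6.37 and 6.74 CPM in control replicates 1 to 4 and at 14.1, 9.83, 13.1 and 12.7 CPM in lactate replicates 1 to 4. With I-BET762 it stood at 4.84, 6.52, 7.60 and 5.28 CPM, and with both treatments at 10.7, 11.8, 11.4 and 13.5 CPM. Every library with lactate lay above every library without it, with or without the inhibitor. The counts behind these values were 63 to 128 per library without lactate and 139 to 232 with it. The log2 fold change was 1.01 (SE 0.17, edgeR adjusted p = 0.00115) for lactate against control, 0.97 (SE 0.17, adjusted p = 0.00378) for both against I-BET762 and 0.94 (SE 0.17, adjusted p = 0.00133) for both against control. Groups without overlap were found for 10.9% of all genes (higher with lactate) in the first comparison, 11.2% in the second and 16.5% in the third. Without the 2 libraries that went against their labels these were 0.91, 1.00 and 0.84, all called. The response to lactate differed between cells with and without the inhibitor by -0.04 (95% interval -0.55 to 0.46; interaction adjusted p = 0.959).

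EGLN1 encodes the main oxygen sensor among the prolyl hydroxylases (ENSG00000135766, chromosome 1, 231363751 to 231425044, minus strand). It stood at 209, 196, 189 and 186 CPM in control replicates 1 to 4 and at 184, 213, 186 and 187 CPM in lactate replicates 1 to 4. These groups overlapped almost entirely (log2 fold change -0.02, SE 0.08, adjusted p = 0.900). With I-BET762 it stood at 180, 190, 171 and 171 CPM and with both treatments at 215, 215, 217 and 201 CPM. Those 2 groups did not overlap, as was so for 22.5% of all genes (11.2% higher), but the difference of 0.25 (SE 0.08, adjusted p = 0.0978) missed the threshold. It passed with DESeq2 (adjusted p = 0.0179), in a fit of those 2 groups alone (adjusted p = 0.0159) and with offsets for GC content and exon length (0.30, adjusted p = 0.0305), but not without the libraries labelled control 2 and I-BET762 2 (0.28, adjusted p = 0.122). Both against control gave 0.12 and did not pass, and gave 0.26 (adjusted p = 0.0412) with the GC content and exon length offsets. The interaction was 0.27 (95% interval 0.02 to 0.52), with an unadjusted p of 0.0377 and an adjusted p of 0.700.

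EGLN2, the third prolyl hydroxylase (ENSG00000269858, chromosome 19, 40798996 to 40808433, plus strand), was listed at 10 to 74 counts per library. Of the exon length annotated to it, 30.6% is shared on the same strand with the readthrough gene RAB4B-EGLN2, which had 0 counts in all 16 libraries. Reads from shared exons may therefore be absent from its count, and its level is not compared with those of the other hydroxylases. It stood at 3.69 to 4.40 CPM in control, 1.02 to 4.19 CPM with lactate, 3.33 to 4.55 CPM with I-BET762 and 2.596 to 3.715 CPM with both. The differences with lactate, -0.55 (SE 0.27, adjusted p = 0.140) without the inhibitor and -0.46 (SE 0.27, adjusted p = 0.381) with it, did not pass the test. The first rested on single libraries: it was -0.86 and passed without lactate replicate 3 (adjusted p = 0.0285), -0.31 without lactate replicate 1 (adjusted p = 0.268) and -0.22 without lactate replicates 1 and 4 (adjusted p = 0.518).

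HIF1AN, the asparaginyl hydroxylase (ENSG00000166135, chromosome 10, 100529072 to 100559998, plus strand), was lower with lactate alone. It stood at 99.0, 118, 124 and 120 CPM in control replicates 1 to 4 and at 59.2, 88.3, 89.7 and 83.4 CPM in lactate replicates 1 to 4. All lactate libraries lay below all controls, as did 9.12% of all genes, and replicate 1 was again the lowest. The means were 115 ± 11.1 and 80.1 ± 14.2 CPM (SD, n = 4 each). On the log2 scale HIF1AN fell by 0.52 (SE 0.13), with an edgeR adjusted p of 0.0117. With I-BET762 HIF1AN stood at 121, 95.2, 129 and 130 CPM, where the low library is the one that went against its label. With both treatments it stood at 110, 102, 117 and 110 CPM, so lactate in the presence of the inhibitor gave a difference of -0.12 (SE 0.13, adjusted p = 0.694), or -0.21 (adjusted p = 0.471) without the libraries that went against their labels. Against lactate alone, both treatments were higher in every library (3.82% of all genes were), by 0.45 (SE 0.13), with an adjusted p of 0.228 in a comparison that called 0 genes. The interaction was 0.41 (95% interval 0.01 to 0.80; unadjusted p = 0.0446, adjusted p = 0.700), so a difference between the 2 responses did not pass the correction. The fall with lactate stood at -0.37 without lactate replicates 1 and 4 (adjusted p = 0.0424) and at -0.51 without the 2 libraries that went against their labels (adjusted p = 0.0211), but stood at -0.27 (adjusted p = 0.109) with trends on GC content and exon length removed. HIF1AN is the longest member, with a longest transcript of 13011 bases. It shares 325 exon bases with NDUFB8 on the opposite strand, which stood at 20.2 to 26.6 CPM in control and 22.7 to 95.8 CPM with lactate, and the strand setting of the counts is not given in the sources used here.

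VHL, the substrate receptor of the ubiquitin ligase (ENSG00000134086, chromosome 3, 10141008 to 10152220, plus strand), stood lower with lactate in both settings without passing the test. It stood at 74.0, 61.2, 80.5 and 71.1 CPM in control replicates 1 to 4 and at 66.0, 56.7, 50.7 and 64.9 CPM in lactate replicates 1 to 4. With I-BET762 it stood at 66.9, 75.6, 77.7 and 65.0 CPM and with both treatments at 57.3, 62.6, 55.4 and 56.2 CPM. The control and lactate libraries overlapped, while the libraries with both treatments lay below all those with I-BET762, as was so for 11.3% of all genes. The log2 fold changes were -0.27 (SE 0.11, adjusted p = 0.0849) and -0.30 (SE 0.11, adjusted p = 0.133), and that of both against control -0.31 (SE 0.11, adjusted p = 0.0580). VHL passed for lactate without control replicate 2 (-0.34, adjusted p = 0.0469) or lactate replicate 1 (-0.32, adjusted p = 0.0358), and for both against control without control replicate 2 (-0.38, adjusted p = 0.0262). It also passed for lactate with DESeq2 (adjusted p = 0.0462) and without lactate replicates 1 and 4 (-0.41, adjusted p = 0.0210). Both against I-BET762 passed in a fit of those 2 groups alone (-0.30, adjusted p = 0.0216) and stood at -0.27 (adjusted p = 0.227) without the 2 libraries that went against their labels. Both against control passed with DESeq2 (adjusted p = 0.0283), with the groups alone (adjusted p = 0.0270) and without those 2 libraries (-0.38, adjusted p = 0.0311).

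CITED2, the inhibitor that competes for HIF's coactivators (ENSG00000164442, chromosome 6, 139371807 to 139374620, minus strand), rose with lactate. It stood at 311, 256, 364 and 412 CPM in control replicates 1 to 4 and at 434, 408, 529 and 533 CPM in lactate replicates 1 to 4. The groups overlapped by 1 library each, control replicate 4 and lactate replicate 2, and the lowest control was the library that went against its label. The means were 336 ± 67.4 and 476 ± 64.5 CPM (SD, n = 4 each). On the log2 scale CITED2 rose by 0.50 (SE 0.16), with an edgeR adjusted p of 0.0287. With I-BET762 CITED2 stood at 337, 368, 402 and 395 CPM and with both treatments at 384, 465, 513 and 614 CPM. Both against control gave 0.56 (SE 0.16, adjusted p = 0.0187) and both against I-BET762 0.40 (SE 0.16, adjusted p = 0.162). The last passed in a fit of those 2 groups alone (0.39, adjusted p = 0.0396) and stood at 0.38 (adjusted p = 0.224) without the libraries that went against their labels. Without the libraries labelled control 2 and I-BET762 2 the calls were lost, at 0.39 (adjusted p = 0.103) for lactate and 0.45 (adjusted p = 0.0645) for both against control. The call for lactate was also lost without control replicate 1, 2 or 3 or lactate replicate 3 or 4 (0.39 to 0.54, adjusted p 0.0525 to 0.0877), and that for both against control without control replicate 1 or 2 or replicate 4 given both (0.43 to 0.52, adjusted p 0.0527 to 0.0813).

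**Figure D2:**
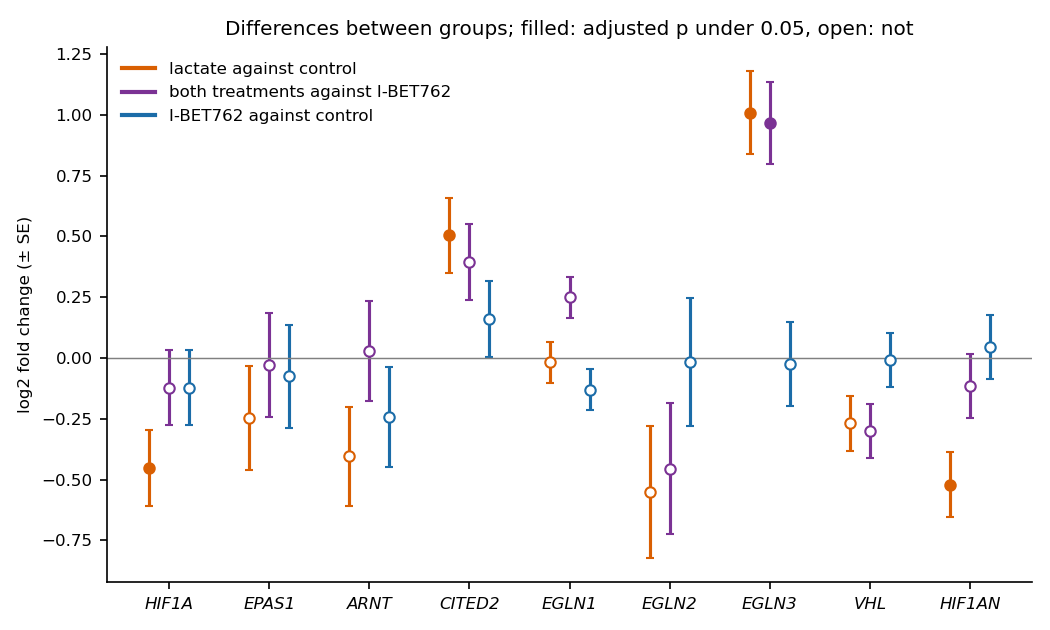
Log2 fold change with its SE for the 9 tested genes in 3 comparisons, from 1 model of the 16 libraries; filled points passed an adjusted p of 0.05. EGLN3 lies near 1 in both lactate comparisons and near 0 for I-BET762 against control, where no point is filled.

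I-BET762 alone changed none of the 9 tested genes, against 0.442% of all genes. Their log2 fold changes ran from -0.24 (ARNT) to 0.16 (CITED2), with 0 of 9 under an unadjusted p of 0.05 in edgeR, and 0 called by DESeq2 and by limma-voom. The number of members called was also 0 without the libraries labelled control 2 and I-BET762 2, where HIF1A stood at -0.02, EGLN1 at -0.16, VHL at -0.10, HIF1AN at 0.15, CITED2 at 0.06 and EGLN3 at -0.16. This comparison was itself unsteady: the 65 genes called among all 14690 became 10 without those 2 libraries and 0 with GC content offsets. The 8 libraries of the control and I-BET762 groups were also left out 1 at a time. The calls were then 277 without control replicate 4, 105 without I-BET762 replicate 4 and 0 without any other of these libraries. HEXIM1 did not pass in it either (0.38, SE 0.19, adjusted p = 0.486). The intervals were -0.45 to 0.20 for HIF1A, -0.39 to 0.34 for EGLN3 and -0.24 to 0.23 for VHL (95%, log2 scale), so changes of these sizes were not shown to be absent. Adding the inhibitor to lactate changed 0 of 9 as well, in a comparison that called 0% of all genes (0 of 14690), with 1 of 9 under an unadjusted p of 0.05 (HIF1AN) and 0 called by DESeq2. The interaction changed 0 of 9 and 0% of all genes, with EGLN1 and HIF1AN under an unadjusted p of 0.05.

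To compare levels between the genes, CPM was divided by the kilobases of exon annotated to each. In control cells HIF1A stood at 135 ± 18.4 and CITED2 at 133 ± 26.6 CPM per kb (SD, n = 4), and these 2 did not differ beyond their spread. EGLN1 followed at 26.8 ± 1.43, EPAS1 at 21.8 ± 1.84, ARNT at 17.0 ± 1.65, VHL at 17.0 ± 1.90 and HIF1AN at 8.26 ± 0.798 CPM per kb. ARNT and VHL overlapped, and the other neighbours in this stretch did not. EGLN3 was far below EGLN1, at 0.837 ± 0.127 CPM per kb in control and 1.69 ± 0.251 with lactate. By the longest transcript in place of all exons EGLN3 stood at 2.16 in control, and EPAS1 (30.8) then stood above EGLN1 (27.5). With lactate CITED2 reached 188 ± 25.5 and HIF1A 98.5 ± 26.1 CPM per kb, and the libraries of these 2 genes no longer overlapped.

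**Figure D3:**
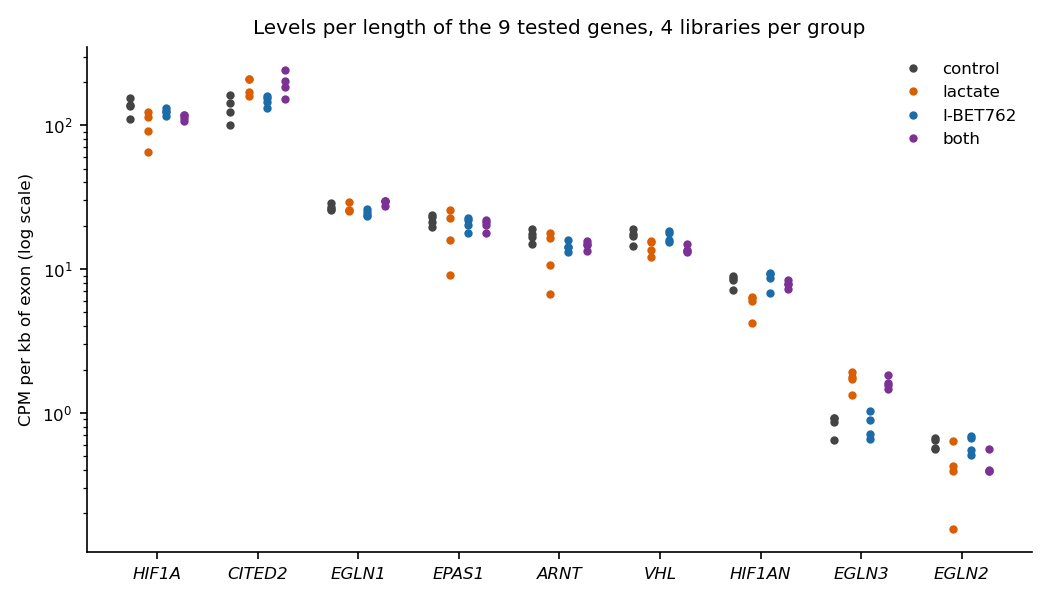
CPM per kb of exon on a log axis for the 9 tested genes, each point a library, coloured by group (4 libraries each) and ordered by the control mean. HIF1A and CITED2 share the top, and EGLN3 lies well below EGLN1 in every group.

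Over the 16 libraries the members did not vary as 1 block. As a description across libraries that share groups and treatments, the Pearson correlation of log2 CPM was 0.91 between EPAS1 and ARNT, 0.90 between HIF1A and ARNT and 0.80 between HIF1A and EPAS1. EGLN2 and HIF1AN went with these subunits too, at 0.84 and 0.79 with HIF1A, 0.74 and 0.72 with ARNT and 0.76 and 0.66 with EPAS1. HIF1A, EPAS1, ARNT, EGLN2 and HIF1AN each had their lowest CPM of the 16 libraries in lactate replicate 1. The part of that library in these correlations was not tested. EGLN3 went with CITED2 (0.82) and opposite to HIF1A (-0.66). VHL and EGLN1 had correlations between -0.05 and 0.25 with HIF1A, EPAS1 and ARNT. Likeness was ranked over 10671 genes averaging 5 CPM or more. Those most like EGLN3 were PRPF40B (0.969), HLA-DQB1 (0.95) and RAB20 (0.95), and those most like HIF1A were GEMIN5 (0.98), PAPOLA (0.97) and WDR82 (0.97). TXNRD1 (0.98), TUFT1 (0.965) and H2BC19P (0.96) were most like HIF1AN, and PBXIP1 (0.945), JAK3 (0.94) and RIPK4 (0.93) most like CITED2. Of these 12 genes, 2 of 3 recurred by Spearman's correlation for each of EGLN3, HIF1A and HIF1AN, and 1 of 3 for CITED2.

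Other genes of the pathway were read from lists chosen by name with earlier results of these data known. Their counts are therefore a description and not independent support. Of 27 tested direct HIF targets, EGLN3, EGLN1 and CITED2 not among them, 16 rose and 0 fell with lactate. Of all genes 13.6% rose and 10.1% fell. The median log2 fold change was 0.72 against 0.03 over all genes. The phosphofructokinase regulator PFKFB4 (1.46), the mitophagy receptor BNIP3 (1.44), NDRG1 (1.29) and the pyruvate dehydrogenase kinase PDK1 (1.499) had the smallest p. Some well-known targets did not pass, among them the angiogenic factor VEGFA (0.05, adjusted p = 0.839) and the hormone precursor ADM (0.31, adjusted p = 0.492), and CA9 was too low to test. Under the inhibitor, lactate raised 16 of 27 and lowered 0, led by PFKFB4 (1.58) and BNIP3 (1.55), where 3.34% of all genes rose. The median there was 0.83 against 0.005 over all genes. Both against control raised 19 of 27 and lowered 0, where 13.0% of all genes rose (median 0.80 against -0.013). I-BET762 alone changed 0 of 27 (median -0.06), where 0.442% of all genes changed.

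Of 5 tested genes listed with the VHL ubiquitin ligase, 2 passed with lactate, in opposite directions, where 23.7% of all genes passed. The scaffold CUL2 fell by 0.35 (SE 0.08, edgeR adjusted p = 0.00933) and the adaptor ELOB rose by 0.92 (SE 0.30, adjusted p = 0.0357). The adaptor ELOC (0.17) and the RING subunit RBX1 (0.62, adjusted p = 0.0805) did not pass, nor did UBE2M (0.32). NEDD8 had no counts in any library. How reads of overlapping genes were counted is not given, so this was not read as absence of expression. The count of this list ran from 0 to 3 over the alternatives. It was 1 without control replicate 1, 2 or 3 or lactate replicate 1 or 4, and 3 without lactate replicate 2 or 3. The count was also 1 with GC content offsets, with limma-voom and without the libraries labelled control 2 and I-BET762 2. In each of these settings with a count of 1, 0 genes were called higher, so ELOB lost its call there. With the compared groups fitted alone the count was 0. Among coactivators and relatives of CITED2, 0 of 6 tested passed with lactate, against 23.7% of all genes. The acetyltransferases CREBBP and EP300 stood at -0.19 and -0.26, NCOA1 at -0.34, NCOA2 at -0.40, CDK8 at -0.25 and CITED4 at 0.99 (adjusted p = 0.0630). CITED4 was low, with a mean of 0.876 CPM over the 16 libraries. Without lactate replicate 2, 4 of these 6 passed. The calls over all genes for lactate ran from 1839 to 4950 with single libraries left out.

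Of 9 tested bHLH-PAS factors other than the HIF subunits, BMAL2 fell (-0.42, adjusted p = 0.0158) and NPAS1 rose (1.25, adjusted p = 0.0181) with lactate. NPAS1 was low, with a mean of 1.40 CPM over the 16 libraries. CLOCK (-0.33) and BMAL1 (-0.43) did not pass, so that 2 of 9 passed beside 23.7% of all genes. With both treatments against control, 3 fell and 1 rose, where 20.7% of all genes passed (13.0% higher). CLOCK (-0.55) and NPAS1 (1.39) led, and ARNT2, a relative of ARNT, stood at -1.22 (adjusted p = 0.0305). Among 12 regulators of HIF-alpha turnover, the ubiquitin ligase STUB1 rose with lactate (0.63, adjusted p = 0.0429). COMMD1 (0.59), OS9 (0.17) and USP20 (0.21) did not pass, so that 1 of 12 passed against 23.7% of all genes. Both against control raised 3 of the 12, OS9 (0.34), USP20 (0.54) and STUB1 (0.69), where 13.0% of all genes rose. Of 10 other oxygen-dependent dioxygenases, the collagen prolyl hydroxylase subunit P4HA2 (0.50) and the histone demethylase KDM4B (0.87) rose with lactate. KDM4A (-0.51) and OGFOD1 (-0.45) fell, 4 of 10 in all against 23.7% of all genes, and the count was not read as particular to this list. With single libraries left out, the number called for lactate ran from 0 to 4 for the bHLH-PAS factors and from 0 to 3 for the turnover regulators. P4HA2 (0.52) was the 1 dioxygenase of the list to change when lactate was added to the inhibitor, where 4.90% of all genes passed. Both against control raised 3 of the 10 dioxygenases, led by KDM4B (1.33) and P4HA2 (0.52), where 13.0% of all genes rose.

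**Figure D4:**
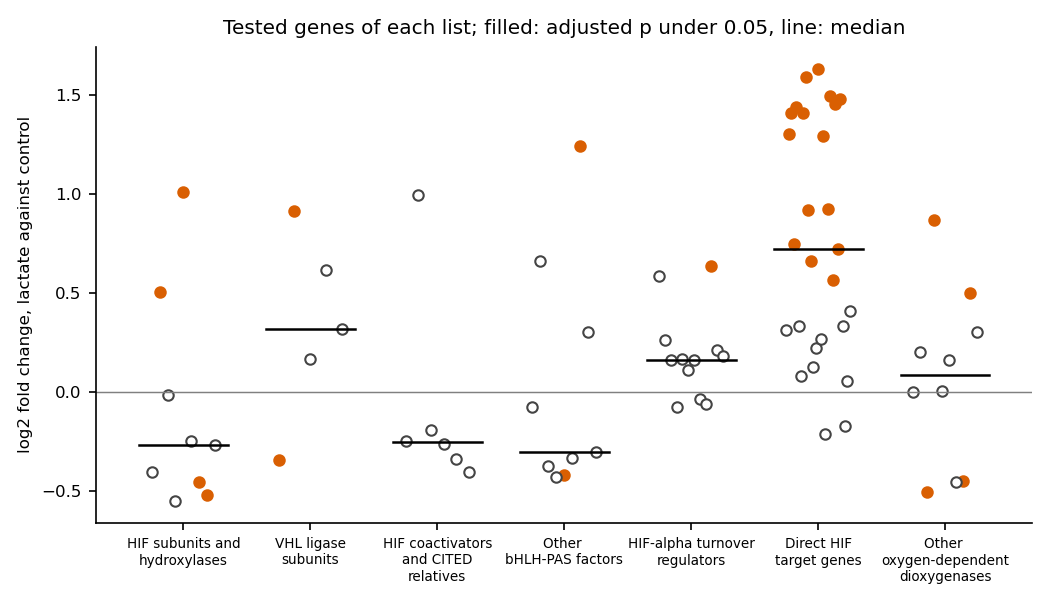
Log2 fold change of lactate against control for every tested gene of the 7 lists; filled points passed an adjusted p of 0.05 and the line is the list's median. The 16 filled direct HIF targets all lie above 0, whereas the HIF subunits and hydroxylases spread from -0.55 to 1.01.

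**Figure D5:**
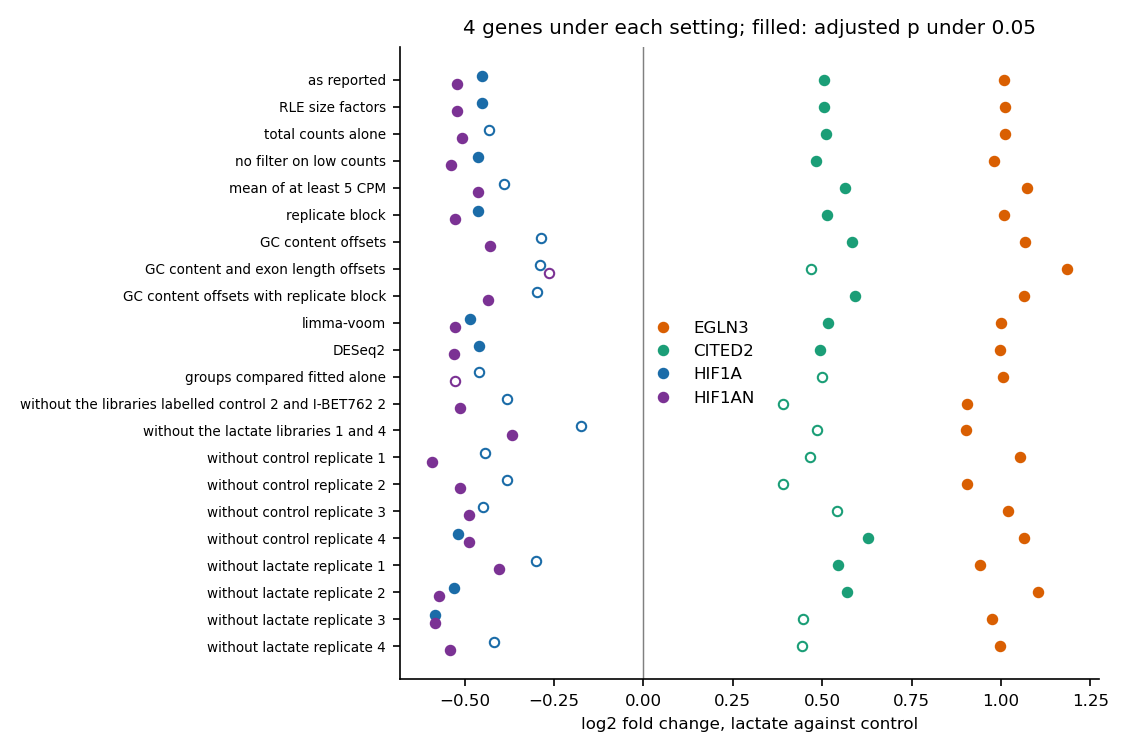
Log2 fold change of lactate against control for the 4 changed genes (x axis) under each setting (rows); filled points passed an adjusted p of 0.05. EGLN3 is filled in every row, between 0.90 and 1.18, and HIF1A is open in 13 of the 21 alternatives.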

How the data were processed

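The deposited file holds raw counts, which the authors made per gene and library. Alignment with STAR 2.6.1c and use of DESeq, on GRCh38.p12 (hg38), are named per the submitters' processing notes. Poly(A) RNA was made into strand-specific libraries read as single ends, per the labels' protocols. Which counter, strand option and gene models were used is not given in the sources used here, so overlapping genes are uncertain. Symbols matched 42465 identifiers; coordinates and lengths are GENCODE release 29's on GRCh38.

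Genes were kept by filterByExpr (minimum count 10, minimum total 15), which left 14690. TMM scaling was applied, and 1 model with a mean per group was fitted by the edgeR 4.0.16 quasi-likelihood method (R 4.3.3) with two-sided tests. On counts simulated for lactate against control over 14690 genes, 20 of 100 genes altered 1.5-fold and 66 of 100 altered 2-fold were found, with 3 false among 89 calls. The simulation altered far fewer genes than the 3486 called for lactate, and it held no trends on GC content or exon length. Its shares found and false therefore do not carry over to the calls reported here. Log2 CPM used a prior count of 2. Alternatives were other scalings and filters, the replicate number as a block, and offsets for GC content and exon length. DESeq2 1.42.0, limma-voom (limma 3.58.1), the compared groups alone and libraries left out were further alternatives. Single libraries were left out only for comparisons that use their own group.

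The members and lists were chosen with earlier results of these data known. All 10 members were named, with up to 4 genes of smallest p per list for lactate against control, up to 2 in other comparisons where a gene of the list changed, and the 3 genes most like each changed member. Other list genes were named after their values were seen.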

Additional observations from a re-analysis of the deposited data

Results flagged for a closer look

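In 3 of 36 groups of 4 libraries (9 tested genes in 4 groups) the highest or lowest library stood apart, with a gap to its neighbour that exceeded Dixon's 95% critical share of the group's range. Chance flags about 1 in 20 groups, which is 1.8 of 36. EGLN1 stood at 213.3 CPM in lactate replicate 2, above the other lactate libraries at 184 to 187 CPM. EGLN1 stood at 200.8 CPM in replicate 4 given both treatments, below the others at 215 to 217 CPM. EGLN2 stood at 3.715 CPM in replicate 3 given both treatments, above the others at 2.596 to 2.63 CPM, from 38 to 54 counts per library.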

How the results depend on the processing

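EGLN3 kept its direction and its call in every alternative run for lactate against control (21 alternatives, log2 fold change 0.90 to 1.18), both against I-BET762 (0.87 to 1.09) and both against control (0.84 to 1.01). HIF1AN lost its call for lactate in 2 of 21 alternatives, CITED2 in 9 and HIF1A in 13; the direction held in each. The 4 members called for lactate became 1 with GC content and exon length offsets, 1 with the compared groups fitted alone and 2 without the libraries labelled control 2 and I-BET762 2, and ran from 2 to 5 with single libraries left out. For both against I-BET762 the 1 call became 2 with GC content and exon length offsets, 2 with DESeq2 and 4 with those groups alone; leaving out single libraries gave 1 throughout. For both against control the 2 calls became 3 with GC content and exon length offsets, with DESeq2 and with those groups alone, and ran from 1 to 2 with single libraries left out. The cause was not tested. The replicate numbers were not taken to pair the libraries, because the labels do not say what a number shares across groups. Deviations of same-numbered libraries correlated at -0.26 to 0.421 over 24 pairs (median 0.172, 16 over 0.1). Differently numbered libraries correlated at -0.466 to 0.529, and 7 of 16 libraries went best with their own number. Whether same-numbered libraries share a batch was not tested. With the replicate block the members called were 4 for lactate, 2 for both against I-BET762, 2 for both against control and 0 in the other comparisons; with GC content offsets and the replicate block they were 3, 3, 3 and 0. The call gained for both against I-BET762 with the block was CITED2 (0.38, adjusted p = 0.0456). With GC content offsets and the block, CITED2 (0.39, adjusted p = 0.0392) and EGLN1 (0.29, adjusted p = 0.0323) were gained there, and EGLN1 for both against control (0.24, adjusted p = 0.0439). Over all genes the calls ran over the alternatives from 889 to 4950 for lactate, 0 to 539 for I-BET762, 285 to 2535 for both against I-BET762, 0 to 197 for both against lactate, 1598 to 4709 for both against control and 0 to 3 for the interaction. Direct HIF targets called for lactate ran from 13 to 22.

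Sign changes were confined to uncalled member values. EGLN1 for lactate turned to 0.045 among genes averaging 5 CPM or more, 0.099 with GC content offsets, 0.191 with exon length offsets added, 0.098 with GC content offsets and the replicate block, and 0.039 without lactate libraries 1 and 4. Without those 2 libraries EPAS1 and ARNT turned to 0.157 and 0.003 for lactate. For both against lactate that setting gave HIF1A -0.066, EPAS1 -0.259, ARNT -0.215, EGLN2 -0.247, EGLN3 0.041 and VHL 0.107, and for the interaction EPAS1 -0.192, EGLN2 -0.239, EGLN3 0.055 and VHL 0.106. For I-BET762 against control EGLN3 turned to 0.029 with GC content offsets, 0.029 with exon length added, 0.033 with GC content offsets and the block, and 0.002 with the groups alone. VHL there turned to 0.06, 0.059, 0.061 and 0.017 under the same settings and to 0.001 among genes averaging 5 CPM or more, and EGLN2 to 0.006 with the groups alone. HIF1AN for both against control turned to 0.02, 0.089 and 0.025 under the 3 settings with GC content offsets. Without a filter VHL turned to 0.004 for both against lactate and 0.008 for the interaction. Without the libraries labelled control 2 and I-BET762 2, ARNT turned to -0.013 for both against I-BET762, and EGLN3 and VHL to 0.095 and 0.067 for the interaction.

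With single libraries left out, the values that changed sign ran as follows. For lactate EGLN1 ran from -0.073 to 0.015. For I-BET762 EGLN2 ran from -0.088 to 0.059, EGLN3 from -0.153 to 0.07, VHL from -0.076 to 0.051 and HIF1AN from -0.02 to 0.139. For both against I-BET762 ARNT ran from -0.013 to 0.082 and EPAS1 from -0.094 to 0.029. For both against lactate ARNT ran from -0.024 to 0.383, CITED2 from -0.066 to 0.159, EGLN2 from -0.162 to 0.389, EPAS1 from -0.082 to 0.356 and VHL from -0.109 to 0.012. For the interaction CITED2 ran from -0.244 to 0.004, EGLN2 from -0.128 to 0.408, EGLN3 from -0.139 to 0.09 and VHL from -0.1 to 0.038. Depth limits HIF3A, at or under the floor of 3 counts, and EGLN2, with 10 to 74 counts.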

Other observations

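HIF1A-AS3, an antisense transcript at the HIF1A locus that shares no exon bases with HIF1A in the annotation used, had 3 to 12 counts per control library and 8 to 23 per lactate library (0.228 to 0.788 and 0.813 to 1.58 CPM). It had 3 to 9 counts with I-BET762 and 5 to 14 with both treatments.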
